A study of Mus musculus with 6 samples.

Results

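The genes described here encode 10 peptidases of the lysosome, the acidic compartment in which a cell breaks down protein: the cathepsins Ctsa, Ctsb, Ctsc, Ctsd, Ctsh, Ctsl, Ctss and Ctsz, the asparagine-specific protease legumain (Lgmn) and the serine carboxypeptidase Scpep1. They were taken by name from the deposited table, where all 10 were present among 15035 gene rows. The table holds RNA-seq of mouse leukemia cells from 6 libraries. In both groups the cells were bone marrow cells of the BALB/c strain into which a retrovirus had brought mutant CSF3R, the G-CSF receptor, and mutant CEBPA, a myeloid transcription factor. One group of 3 libraries came from cells given DMSO, the solvent, and the other group of 3 from cells given 4 nM GSK-LSD1, which blocks LSD1, a demethylase of histone lysines encoded by Kdm1a, each for 48 h. No label tells whether the 3 libraries in each group are separate cultures, animals or clones, or which promoter drives the mutant genes, so p-values measure sample-to-sample spread only and this may be technical.

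Cathepsins are made as inactive precursors, carried to the lysosome by mannose 6-phosphate receptors and other sorting receptors, and matured there by cleavage at low pH. They fall into catalytic classes: Ctsd is an aspartic protease, Ctsa and Scpep1 are serine carboxypeptidases, and Ctsb, Ctsc, Ctsh, Ctsl, Ctss and Ctsz are papain-type cysteine proteases, while legumain is a cysteine protease of another family that also cleaves several cathepsins. In myeloid cells these enzymes degrade engulfed material, trim antigens and their chaperone for class II presentation, and, in the case of Ctsc, mature the serine proteases stored in granules.

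The 4 sequences given here are the 250 bases before the RefSeq transcription start of the 2 genes with the largest increase, Scpep1 and Ctss, of Ctsd, the most abundant, and of Ctsc, which fell most. They are shown because these genes share a function and yet moved by very different amounts and in different directions. All are reference sequence of RefSeq on GRCm38.p6 and were not read from these cells. Capitals mark matches on either strand to 4 motifs: CACGTG, the E-box core bound by the lysosomal regulators of the MiT/TFE family, GAGGAAGT, a form of the site of the myeloid factor PU.1, GGGCGG, the GC box, and TATAAA, the TATA box. The windows lie at chr11:88955443-88955692 on the minus strand for Scpep1, chr3:95526536-95526785 on the plus strand for Ctss, chr7:142387828-142388077 on the minus strand for Ctsd, and chr7:88277835-88278084 on the plus strand for Ctsc.
Scpep1: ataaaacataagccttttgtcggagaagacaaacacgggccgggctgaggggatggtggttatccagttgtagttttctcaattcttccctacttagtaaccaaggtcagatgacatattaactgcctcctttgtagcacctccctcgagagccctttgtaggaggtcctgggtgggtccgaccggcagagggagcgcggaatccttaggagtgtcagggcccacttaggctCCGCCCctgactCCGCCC
Ctss: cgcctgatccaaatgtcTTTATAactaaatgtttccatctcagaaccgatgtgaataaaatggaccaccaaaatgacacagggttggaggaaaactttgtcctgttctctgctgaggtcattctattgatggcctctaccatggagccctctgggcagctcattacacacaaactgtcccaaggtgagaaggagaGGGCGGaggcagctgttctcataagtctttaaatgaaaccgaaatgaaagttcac
Ctsd: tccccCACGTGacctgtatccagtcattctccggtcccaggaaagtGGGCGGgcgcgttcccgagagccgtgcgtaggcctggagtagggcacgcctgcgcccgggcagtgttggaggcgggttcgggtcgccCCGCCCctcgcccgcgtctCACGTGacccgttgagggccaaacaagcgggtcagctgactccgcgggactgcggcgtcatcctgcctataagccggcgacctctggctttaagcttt
Ctsc: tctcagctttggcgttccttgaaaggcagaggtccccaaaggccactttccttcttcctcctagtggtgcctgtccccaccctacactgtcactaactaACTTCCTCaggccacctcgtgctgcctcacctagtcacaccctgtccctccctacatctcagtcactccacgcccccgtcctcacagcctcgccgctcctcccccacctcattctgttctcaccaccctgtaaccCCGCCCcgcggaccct

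The Scpep1 window held 2 GC boxes, beginning 18 and 6 bases before the start, and no match to the other motifs. The Ctss window held a TATA box match 233 bases and a GC box 55 bases before the start, and at 44.8% it had the lowest GC content of the 4. The Ctsd window was the richest of them in G and C at 67.2%, with 2 E-boxes (245 and 98 bases before the start) and 2 GC boxes (204 and 117). The Ctsc window had the PU.1-type motif 151 bases and a GC box 16 bases before the start. No matches overlapped each other in these 4 windows. RefSeq windows were at hand for 8 of the 10 genes, 10 windows in all because Ctsa and Lgmn had more than 1 start; Ctsb and Ctsh had no entry. An E-box stood in 4 of the 10 windows (of Ctsa, Ctsd, Ctsl and Lgmn) against 6.02% of the 32851 windows of all genes, a GC box in 6 against 32.74%, a TATA box in 2 (Ctss and Lgmn) against 12.37%, and the PU.1-type motif in 1 (Ctsc) against 2.44%. The E-box windows of Ctsa, Ctsl and Lgmn lie wholly inside the annotated gene, before an inner start, and that of Ctsd lies partly inside it. The other windows of Ctsa and Lgmn, before their outer starts, had no E-box. The E-box count thus rests largely on windows that are not upstream of the gene. These matches describe letters in the windows and were not measured as binding.

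The libraries held between 9572638 and 10199533 counted reads, recovered from the step size of the values, and between 13879 and 14106 genes above 0. Values are read counts divided by 1 factor per library, called scaled read counts here, so that 1 unit is close to 1 read. Kdm1a, whose protein the inhibitor targets, stood at 1257 ± 59.6 (SD, n = 3) with DMSO and 1227 ± 16.3 with GSK-LSD1 (limma, Benjamini-Hochberg adjusted p = 0.631). It is not a check of the labels, because an inhibitor of the protein need not change its RNA. All 10 myeloid progenitor markers were tested, with summed scaled read counts of 17285 to 18851 with DMSO and 20680 to 21231 with GSK-LSD1, and 4 of them rose, 4 fell and 2 did not pass; Mpo, the highest of them, had means of 7390.3 and 8952. No B cell marker was high enough to test. Markers of other cell types also moved between the groups. By the rule given below for the peptidase genes, 20.6% of all genes tested were called higher and 20.5% lower. The monocyte list summed to 13072 to 13784 and 14787 to 14848, and 3 of its 6 tested genes rose. F13a1, with means of 12705 and 13880, made up most of that sum. The mature neutrophil list summed to 4489 to 4906 with DMSO and 21289 to 21971 with GSK-LSD1, and 5 of its 6 tested genes rose and 1 fell, with 1 of those that rose passing the filter through the GSK-LSD1 group alone. Most of the gain in this sum was Mmp8, with means of 2375.5 and 15579. The gene that fell was Ngp, from 46.5 to 18.9. Ltf and Retnlg were too low to test, and Camp and Ly6g were not among the listed rows. The macrophage list summed to 93.6 to 118 and 332 to 347; its 3 tested genes (Adgre1, Csf1r and Cd68) rose, Csf1r having passed the filter through the GSK-LSD1 group alone, Mrc1 and Cd163 were too low to test, and the other 7 (C1qa, C1qb, C1qc, Mertk, Vsig4, Marco and Timd4) were not among the listed rows. The mast cell and basophil list summed to 32609 to 34888 and 40968 to 42450, with 3 of 8 tested genes higher and 2 lower. Cpa3, from 14320 to 23028, made most of that gain, while Fcer1a fell from 5758 to 4518 and Hdc from 673 to 302. The erythroid list summed to 198 to 249 and 42.8 to 65.2, and its 5 tested genes fell, 3 of them having passed the filter through the DMSO group alone. The part of these markers in the results that follow was not tested, and in bulk RNA a change in the share of cells of a type and a change in RNA per cell cannot be told apart.

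GSK-LSD1 was followed by a rise of 6 of the 9 peptidase genes that could be tested, a fall of 2 and no call for 1. Scpep1, Ctss, Lgmn, Ctsl, Ctsa and Ctsd rose and Ctsb and Ctsc fell, while Ctsz did not pass the threshold and Ctsh was too low to test. A gene was tested where at least 3 libraries had a scaled read count of 10 or more, and called at a Benjamini-Hochberg adjusted p under 0.05 from limma on log2(value + 1). By the same rule 41.1% of the 11588 genes tested were called, 20.6% higher and 20.5% lower. The groups did not overlap for the same 8 peptidase genes, where 49.5% of all genes tested were separated, 24.7% upward and 24.8% downward. The median log2 fold change of the 9 genes was 0.28, beside -0.01 over all genes tested. In size they fell into 3 tiers: Scpep1 and Ctss were at least 2-fold higher, as were 4.51% of all genes by the same call, none was at least 2-fold lower (0.975% of all genes), Lgmn rose 1.5-fold, and the remaining 5 called genes moved by 1.17-fold to 1.25-fold in one direction or the other. All 9 tested genes reached the filter in the DMSO group and in the GSK-LSD1 group alone. The replicate libraries did not order the genes alike: DMSO replicate 3 was the highest of its group for 6 of the 9 genes and GSK-LSD1 replicate 1 for 5.

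**Figure D1:**
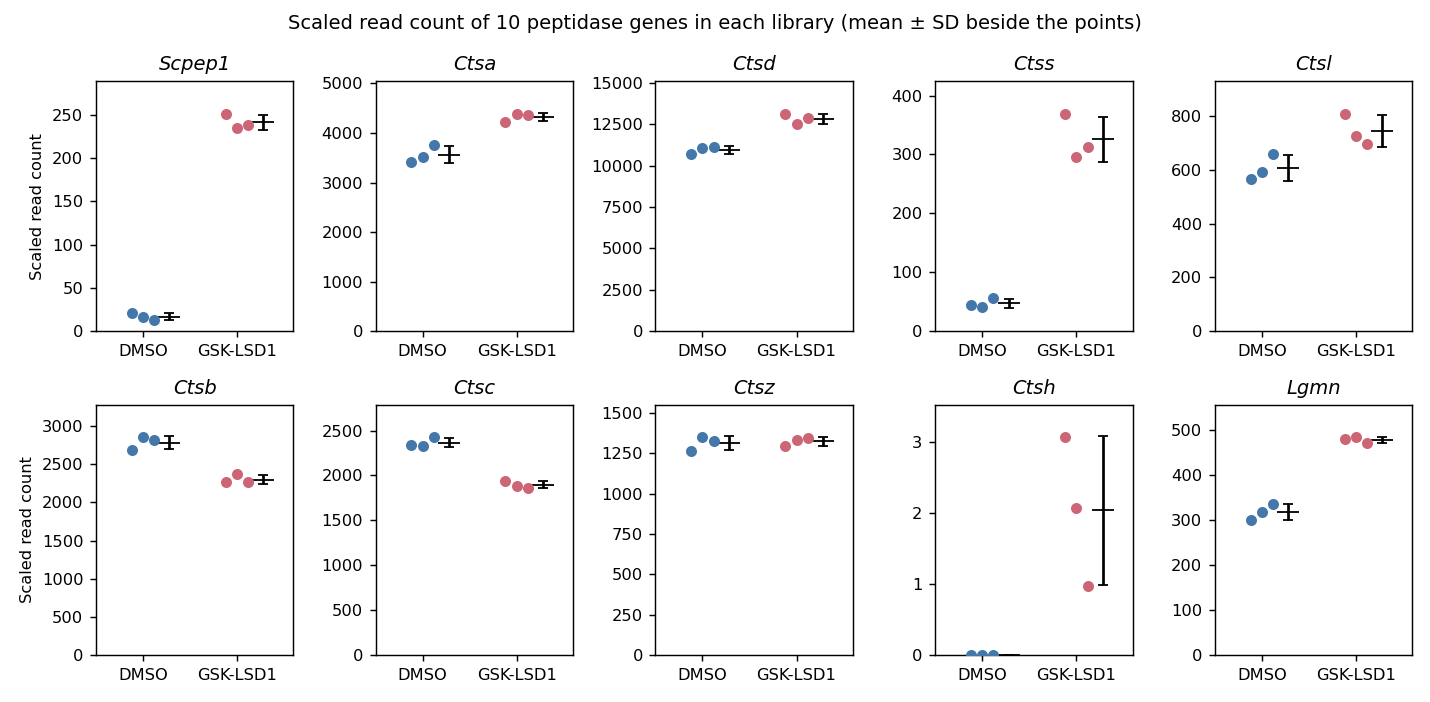
Scaled read count of each of the 10 genes in the 3 DMSO and 3 GSK-LSD1 libraries, 1 point a library, with the mean and SD as a bar beside the points; each panel has its own axis from 0. Scpep1 and Ctss sit near the floor of their panels with DMSO, Ctsz overlaps between groups, and Ctsb and Ctsc are the panels in which GSK-LSD1 is lower.

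Scpep1, retinoid-inducible serine carboxypeptidase, trims residues from the carboxyl end of peptides. It had scaled read counts of 21.5, 15.9 and 12.9 in the DMSO libraries and 251, 234 and 237 in the GSK-LSD1 libraries. Every GSK-LSD1 library was far above every DMSO library, and the DMSO values rest on 51 reads in total against 716. The mean went from 16.8 ± 4.34 to 241 ± 8.99 (SD, n = 3 each), a 14.4-fold rise. On the log2 scale the change was 3.79 ± 0.168 (SE; limma, Benjamini-Hochberg adjusted p = 5.26e-20), which ranked 13 among all genes by size of increase. The gene lies at chr11:88924020-88955465 on the minus strand (GRCm38).

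Ctsa, protective protein/cathepsin A, is the other serine carboxypeptidase and also holds beta-galactosidase and the neuraminidase Neu1 in a stable complex. It was abundant in both groups: the DMSO libraries had 3420, 3509.8 and 3763 and the GSK-LSD1 libraries 4226, 4389 and 4352. The groups were apart, although DMSO replicate 3 stood above the other controls. Ctsa rose 1.21-fold, from 3564 ± 178 to 4322 ± 85.6 (log2 change 0.28 ± 0.045 SE, limma, Benjamini-Hochberg adjusted p = 4.42e-06). Of its partners, the beta-galactosidase gene Glb1 rose from 894 ± 16.8 to 1242 ± 24.2 (log2 change 0.47). Neu1, which needs Ctsa for activity, was at 542 ± 12.5 and 554 ± 42.6 and the sulfatase gene Galns at 572 ± 10.7 and 611 ± 15.6, and neither passed the threshold (limma, Benjamini-Hochberg adjusted p = 0.747 and 0.22). Ctsa lies at chr2:164832873-164841032 on the plus strand.

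Ctsd, the aspartic endopeptidase of the lysosome and a processor of other hydrolases, was the most highly expressed of the 10 genes. Its scaled read counts were 10686, 11098 and 11116 with DMSO and 13143, 12517 and 12851 with GSK-LSD1. The 3 GSK-LSD1 libraries were all higher, and the spread within each group was small beside the gap. Ctsd rose 1.17-fold, from 10967 ± 243 to 12837 ± 313 (log2 change 0.23 ± 0.0426 SE, limma, Benjamini-Hochberg adjusted p = 4.46e-05). Small as it was in fold, this added more reads than any other gene of the set. Ctsd lies at chr7:142375911-142388038 on the minus strand.

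Ctss, a cysteine endopeptidase that stays active at neutral pH and degrades the invariant chain in antigen-presenting cells, had scaled read counts of 44.9, 41.6 and 55.7 with DMSO. In the GSK-LSD1 libraries it had 369, 295.0 and 312. Replicate 1 was the highest of the treated libraries, and all 3 were far above the controls. The mean went from 47.4 ± 7.39 to 326 ± 38.9, a 6.86-fold rise (log2 change 2.76 ± 0.126 SE, limma, Benjamini-Hochberg adjusted p = 1.27e-19), rank 56 by increase among all genes. The macrophage markers Adgre1 and Csf1r, at 17.4 and 11.8 with DMSO, were at 158 and 45.0 with GSK-LSD1 in the same libraries. Csf1r passed the filter through the GSK-LSD1 group alone, and the macrophage markers Mrc1 and Cd163 were too low to test. Of 6 tested monocyte markers, 3 also rose. The part of these markers in the rise of Ctss was not tested. Ctss lies at chr3:95526786-95556403 on the plus strand, next to Ctsk, the collagen-degrading cathepsin of osteoclasts, which had 1 read in all with DMSO and 3 with GSK-LSD1 and was not tested.

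Ctsl, a broad endopeptidase of the same papain-type family, had 563, 593 and 659 with DMSO and 808, 727 and 695 with GSK-LSD1. Its groups came closest to each other among the genes that rose, with the highest DMSO library at 659 and the lowest GSK-LSD1 library at 695. The rise was 1.23-fold, from 605 ± 49.0 to 743 ± 58.3 (log2 change 0.30 ± 0.0664 SE, limma, Benjamini-Hochberg adjusted p = 0.000434). Ctsl lies at chr13:64359337-64370890 on the minus strand.

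Ctsb, which cuts both within proteins and from their carboxyl end, went the other way. It had 2688.5, 2854 and 2815 with DMSO and 2263, 2368 and 2262 with GSK-LSD1, so every treated library was below every control. Ctsb fell from 2786 ± 86.5 to 2298 ± 61.1, 1.21-fold lower (log2 change -0.28 ± 0.0457 SE, limma, Benjamini-Hochberg adjusted p = 6.35e-06). Ctsb lies at chr14:63122462-63145923 on the plus strand.

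Ctsc, dipeptidyl peptidase I, removes dipeptides from the amino end of proteins and in this way activates the granule serine proteases. It had 2339, 2332 and 2424 with DMSO and 1936, 1885 and 1861 with GSK-LSD1. All treated libraries were below all controls, and Ctsc fell from 2365 ± 51.3 to 1894 ± 38.6, 1.25-fold lower (log2 change -0.32 ± 0.0461 SE, limma, Benjamini-Hochberg adjusted p = 6.10e-07). Of 11 tested serine proteases that Ctsc matures, 4 rose, 4 fell and 3 did not pass (median log2 fold change 0.03). The granzyme gene Gzmb, the highest of them at 50747 ± 3122 and 51524 ± 579, did not pass (log2 difference 0.02). Nor did the mast cell genes Cma1, at 3817 ± 112 and 3903 ± 39.2, and Tpsb2 (log2 differences of 0.03 and 0.41). Tpsb2 passed as higher without DMSO replicate 2 (limma, Benjamini-Hochberg adjusted p = 0.0482). The neutrophil elastase gene Elane fell from 107 ± 14.2 to 56.5 ± 8.84, the proteinase 3 gene Prtn3 from 1755 ± 107 to 1105 ± 50.7 and the cathepsin G gene Ctsg from 946 ± 49.9 to 685 ± 65.7. The mast cell and basophil protease genes Mcpt4 and Mcpt8 rose from 70.8 ± 8.38 to 125 ± 24.2 and from 2813 ± 96.5 to 3340 ± 88.7, and the granzyme gene Gzma from 1256 ± 25.7 to 1520.2 ± 94.4. The other called genes, Tpsab1 and Gzmc, are low and were chosen with their values already seen. The mast cell tryptase gene Tpsab1 was at 1.64 ± 1.5 and 44.4 ± 0.463 and passed the filter through the GSK-LSD1 group alone. The granzyme gene Gzmc was at 21.4 ± 6.36 and 11.8 ± 1.46 (limma, Benjamini-Hochberg adjusted p = 0.0369), a call lost without DMSO replicate 1 or 3 (0.206 and 0.0601) and without GSK-LSD1 replicate 2 or 3 (0.102 and 0.0711). Ctsc lies at chr7:88278085-88310888 on the plus strand.

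Ctsz, a carboxypeptidase also called cathepsin X, had 1267, 1349.6 and 1329.9 with DMSO and 1294, 1334 and 1344 with GSK-LSD1. The groups overlapped, and the means of 1315 ± 43.4 and 1324 ± 26.7 did not differ beyond that spread. The log2 difference was 0.01 with a 95% interval from -0.09 to 0.11 (limma, Benjamini-Hochberg adjusted p = 0.894), an interval that does not reach the changes fitted for the other 8 genes. Whether Ctsz differed from each of them was not tested. Ctsz lies at chr2:174427493-174439039 on the minus strand.

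Ctsh, an aminopeptidase of the papain-type family, was listed at 0 in all 3 DMSO libraries and at 3.06, 2.07 and 0.973 in the GSK-LSD1 libraries, 6 reads in all. A count of 0 in a library allows up to 3 reads, and no treated library exceeded that, so no fold is given; the limit covers counting error only. Without the filter on low values, 7 of the 10 genes passed as higher in place of 6, and the added gene was Ctsh. It lies at chr9:90054152-90076089 on the plus strand.

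Lgmn, legumain, cleaves after asparagine and converts several cathepsins to their mature forms. It had 299.8, 318 and 335 with DMSO and 480.5, 483 and 470.1 with GSK-LSD1, with a wide gap between groups and very close treated libraries. Lgmn rose 1.5-fold, from 318 ± 17.8 to 478 ± 7.0 (log2 change 0.59 ± 0.0725 SE, limma, Benjamini-Hochberg adjusted p = 2.80e-08), between the pair of large rises and the small changes of the rest. Lgmn lies at chr12:102394084-102439813 on the minus strand.

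**Figure D2:**
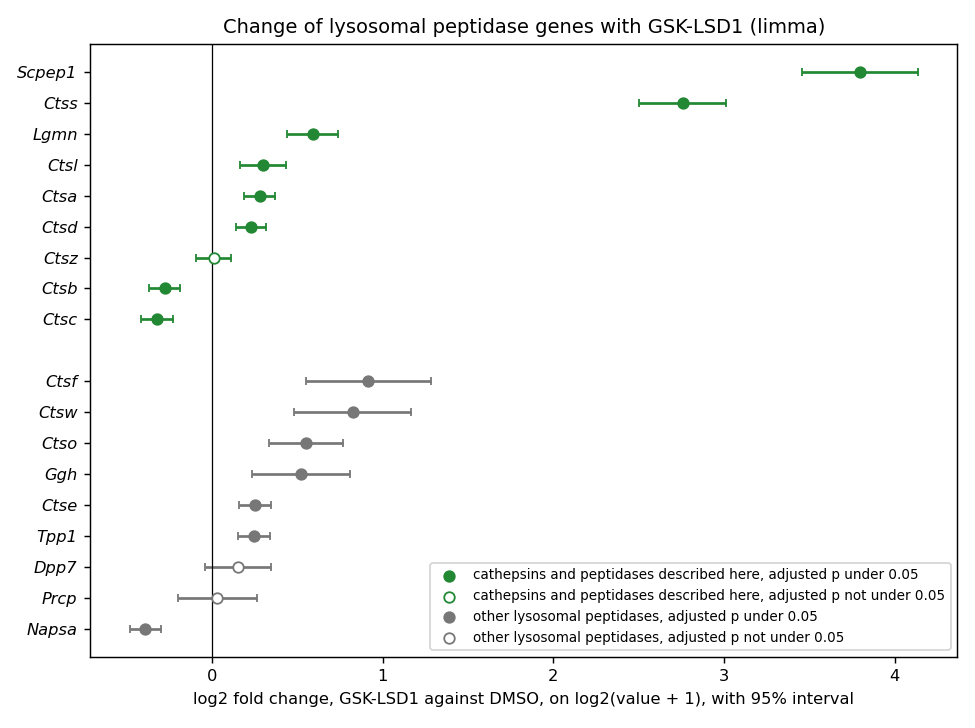
log2 fold change of GSK-LSD1 against DMSO on log2(value + 1) with its 95% interval from limma, for the 9 tested genes described here and 9 other lysosomal peptidases; filled points passed an adjusted p under 0.05. Scpep1 at 3.79 and Ctss at 2.76 lie far to the right of all others, and Ctsb, Ctsc and the aspartic protease gene Napsa lie to the left of 0.

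Divided by the length of the main transcript in kilobases, so that genes can be compared, the levels with DMSO ran from Ctsd at 5156 through Ctsa at 1406.5, Ctsc at 949, Ctsz at 913, Ctsb at 587, Ctsl at 307, Lgmn at 159.7 and Ctss at 35 to Scpep1 at 7.99. Neighbours in this order did not overlap between libraries, with the exception of Ctsc and Ctsz. With GSK-LSD1 the order was Ctsd at 6035, Ctsa at 1706, Ctsz at 919, Ctsc at 759.7, Ctsb at 484, Ctsl at 377, Ctss at 240.3, Lgmn at 240.2 and Scpep1 at 115, and the only neighbours whose libraries overlapped were Ctss and Lgmn. The enzymes that changed most were thus those that had been lowest: Ctss went from below Lgmn to its level, and Scpep1 remained the lowest of the tested genes. By their means Ctsz and Ctsc changed places, but their libraries overlapped with DMSO and only with GSK-LSD1 were they apart. Ctsc fell, and Ctsz did not pass the threshold. These levels depend on the transcript chosen for each gene, from 1355 bases for Ctss to 4743 for Ctsb.

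**Figure D3:**
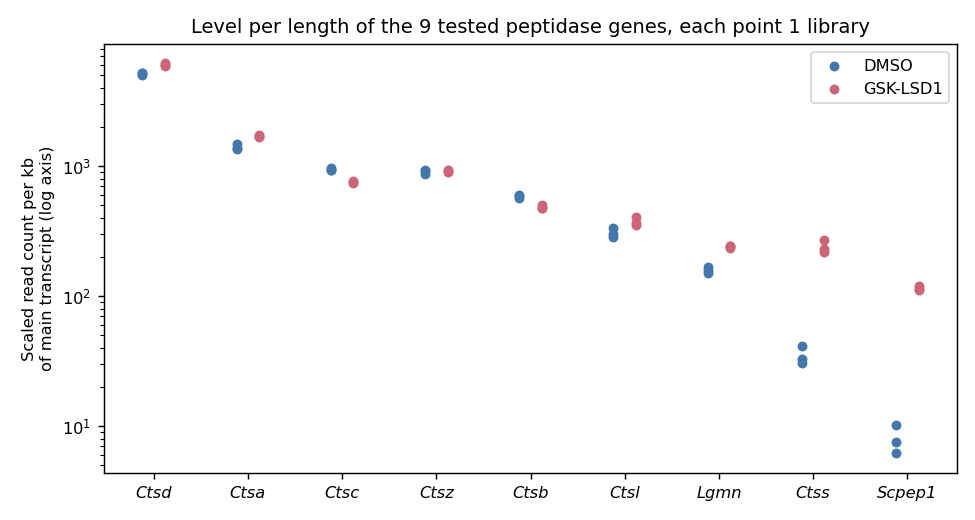
Scaled read count per kilobase of the main transcript for the 9 tested genes, on a log axis, ordered by their DMSO level, each point 1 library (blue DMSO, red GSK-LSD1). Ctsd is highest in both groups, and the gap between the colours is wide for Scpep1 and Ctss and narrow for the rest.

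Summed over the 10 genes, the libraries had 21329, 22111 and 22511 scaled reads with DMSO and 24774, 24234 and 24386 with GSK-LSD1, and the groups did not overlap. The mean sum went from 21984 ± 601 to 24465 ± 278, 1.11-fold higher, which was 0.214% to 0.223% of all scaled reads with DMSO and 0.245% to 0.251% with GSK-LSD1. Ctsd alone made up 49.4% to 50.2% of the sum with DMSO and 51.7% to 53.1% with GSK-LSD1. Of the net gain of 2481 scaled reads, Ctsd added 1870.5 and Ctsa 758, while Ctss and Scpep1 added 278 and 224, and Ctsb and Ctsc took away, with differences of -488 and -471. Lgmn added 160.2, Ctsl 138 and Ctsz 8.6. Ctss and Scpep1 thus added less to the sum than Ctsd and Ctsa, and more than Lgmn, Ctsl and Ctsz.

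Several of the genes share exon sequence with a neighbour, and how reads were assigned between strands is not given in the sources used here, so their values are uncertain. Exons of Fdft1, a squalene synthase gene on the opposite strand, cover 774 bases or 16.32% of the Ctsb transcript. Fdft1 fell from 799 ± 25.4 to 539 ± 43.5 (log2 change -0.57, limma, Benjamini-Hochberg adjusted p = 3.65e-09), a difference of -260.0 scaled reads beside -488.2 for Ctsb, so both genes of this pair fell. Scpep1os, an antisense gene over 96 bases or 4.58% of Scpep1, rose from 2.31 ± 1.53 to 22.9 ± 3.12, a difference of 20.6 scaled reads beside 224.0 for Scpep1; it passed the filter through the GSK-LSD1 group alone. Ctsa shares 311 bases with the opposite-strand gene Pltp and 324 with Neurl2, neither of which passed the threshold (log2 differences of 0.37 and 0.07), and their differences of 17.4 and 1.7 scaled reads are small beside the 758 of Ctsa. Without DMSO replicate 3 or without GSK-LSD1 replicate 1, Pltp passed the threshold (limma, Benjamini-Hochberg adjusted p = 0.0347 and 0.0424). Ctsd shares 808 bases, 37.99% of its transcript, with the same-strand gene model Gm49369, which is not among the listed rows, and Ctsz shares 10 bases with Nelfcd, which did not pass (log2 difference -0.06). In sequence, 36.57% of the 50-base stretches of Ctsd, 21.65% of Ctsa, 15.45% of Ctsb and 2.34% of Scpep1 also occur in transcripts of another gene, and none of those of the other 6.

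Of the tested coding genes next to a peptidase gene without overlapping it, Rin3 rose, Rab38 and Akap1 fell, and 4 did not pass. The share called among these neighbours was close to that of all genes tested, 41.1%. Rin3, a Rab5 exchange factor gene beside Lgmn, rose from 3166 ± 51.7 to 3867.5 ± 251 (log2 change 0.29), in the direction of Lgmn, whereas Golga5 on its other side did not pass (log2 difference -0.10). Rab38, a small GTPase gene of lysosome-related organelles beside Ctsc, fell from 2962 ± 107 to 1839.5 ± 58.5 (log2 change -0.69, limma, Benjamini-Hochberg adjusted p = 1.20e-14), in the direction of Ctsc at -0.32. Akap1 beside Scpep1 fell from 473 ± 49.0 to 392 ± 19.6 (log2 change -0.27), against the rise of Scpep1, and this call was lost without DMSO replicate 1 (limma, Benjamini-Hochberg adjusted p = 0.0603) and without the mean-variance trend (0.0624). Aaed1 and Cdk20 beside Ctsl did not pass the threshold, nor did Morf4l1 beside Ctsh. Cdk20 passed it as lower without DMSO replicate 3 or GSK-LSD1 replicate 3 (limma, Benjamini-Hochberg adjusted p = 0.0445 and 0.0355) and with quantile scaling (0.0157).

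**Figure D4:**
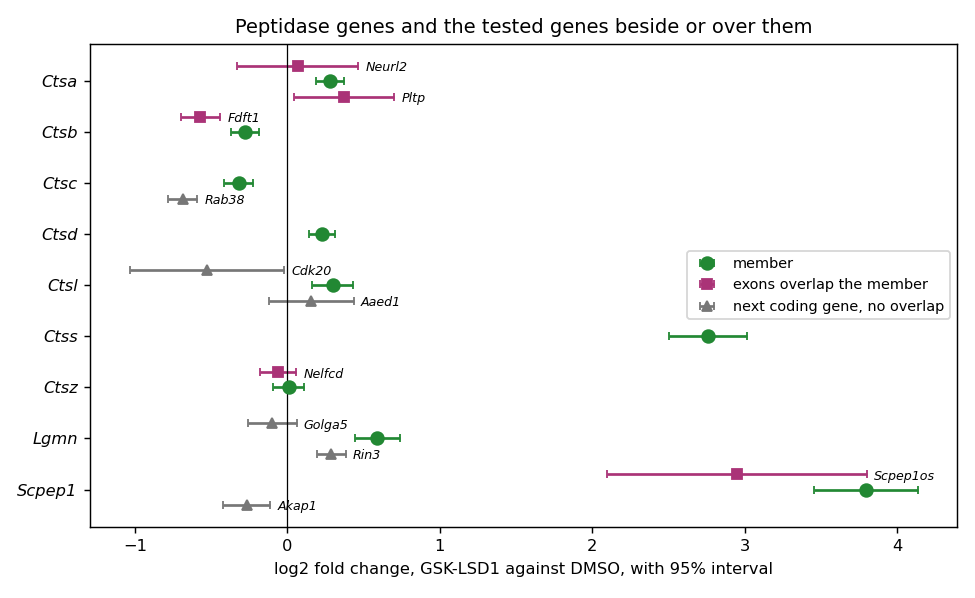
log2 fold change with its 95% interval from limma for the 9 tested peptidase genes (green circles), for genes whose exons overlap them (purple squares) and for the next coding genes without overlap (grey triangles). Fdft1 lies to the left of Ctsb and Rab38 to the left of Ctsc, Scpep1os lies near Scpep1 at the right, and Pltp and Neurl2 have intervals much wider than that of Ctsa.

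The other lysosomal peptidases, 11 genes of which 9 could be tested, had 6 higher, 1 lower and 2 not past the threshold, with a median log2 fold change of 0.25. Of all genes tested, 20.6% were called higher and 20.5% lower. The cathepsin F gene Ctsf rose from 34.9 ± 4.26 to 66.7 ± 7.88 and the cathepsin W gene Ctsw, of cytotoxic lymphocytes, from 44.8 ± 7.0 to 80.1 ± 13.7. Ctso rose from 130 ± 6.48 to 191 ± 13.4, the aspartic protease gene Ctse from 4776 ± 261 to 5682 ± 164, and the tripeptidyl peptidase gene Tpp1 from 2412 ± 97.5 to 2862 ± 51.8. The aspartic protease gene Napsa fell from 3798 ± 116 to 2894 ± 73.2 (log2 change -0.39), so that the 3 tested aspartic proteases did not go one way: Ctsd and Ctse rose and Napsa fell. Ggh, gamma-glutamyl hydrolase, rose from 79.4 ± 8.12 to 115.5 ± 21.6, a call that was lost without GSK-LSD1 replicate 2 (limma, Benjamini-Hochberg adjusted p = 0.0504) and with quantile scaling (0.0521). Dpp7 and Prcp did not pass (log2 differences of 0.15 and 0.03), and Ctsk and Cpq were too low to test.

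Inhibitors of cathepsins and legumain numbered 17, of which 12 were tested, 6 rose, 1 fell and 5 did not pass (median log2 fold change 0.17). Calls over all genes tested were 20.6% higher and 20.5% lower. Cst3, the secreted inhibitor cystatin C, rose from 1100.2 ± 19.5 to 1277 ± 33.6, and Ctla2a, which resembles a cathepsin propeptide, from 359.6 ± 16.5 to 460.4 ± 13.6. The stefin genes Stfa2l1 and BC100530 rose from 39.6 ± 12 to 89.2 ± 14.0 and from 60.0 ± 11.2 to 125 ± 26.4, but reads of this cluster can be shared between near-identical copies, so these values are uncertain. The serpin gene Serpinb6b fell from 70.1 ± 7.86 to 39.9 ± 7.90 (log2 change -0.81). Cystatin B (Cstb, at 344 and 342) and cystatin F (Cst7, an inhibitor of Ctsc, at 812 and 789.6) did not pass the threshold, nor did Serpina3g, Serpinb6a and Ctla2b. The calls of Stfa2 and Serpinb1a, higher by 0.84 and 0.12 on the log2 scale, each depended on single libraries and settings. Stfa2 passed the filter through the GSK-LSD1 group alone, and its call was lost without DMSO replicate 1 or GSK-LSD1 replicate 2 (limma, Benjamini-Hochberg adjusted p = 0.115 and 0.0829), with quantile scaling (0.0915) and without the mean-variance trend (0.0562). That of Serpinb1a was lost without DMSO replicate 2 or GSK-LSD1 replicate 3 (limma, Benjamini-Hochberg adjusted p = 0.0891 and 0.217) and without the trend (0.128). Stfa1, Stfa3 and BC117090 were too low to test, and Cst6 and 2010005H15Rik were not among the listed rows.

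Genes of lysosomal enzyme sorting, not all of which serve cathepsins, changed in both directions: of 15 tested, 5 rose, 3 fell and 7 did not pass, with a median of 0.02. By the same call 20.6% of all genes tested were higher and 20.5% lower. Sort1, the sorting receptor sortilin, rose from 62.8 ± 6.15 to 174 ± 21.9 (log2 change 1.45). Igf2r, the large mannose 6-phosphate receptor, fell from 78.0 ± 8.91 to 39.6 ± 6.08 (log2 change -0.96). The other receptor of this kind, M6pr, was far higher and fell from 2704 ± 64.0 to 2474 ± 25.1 (log2 change -0.13). Its call was lost without DMSO replicate 1 or GSK-LSD1 replicate 1, 2 or 3 (limma, Benjamini-Hochberg adjusted p = 0.0693, 0.0745, 0.0613 and 0.0557). It was also lost with quantile scaling (0.0845), per library total (0.0535) and without the mean-variance trend (0.0832). Scarb2, the receptor of glucocerebrosidase, rose from 612 ± 27.5 to 862 ± 22.1, and the adaptor gene Gga3 fell from 688 ± 47.4 to 543 ± 42.7. Of the MiT/TFE transcription factors, which bind the E-box of lysosomal genes, and their regulators, 5 of 8 rose, none fell by the threshold and 3 did not pass (median 0.42). Tfe3 rose from 1033 ± 16.2 to 1398 ± 39.6 and Fnip1, a partner of folliculin, from 334 ± 26.7 to 471 ± 6.39. Tfeb was at 97.1 ± 4.37 and 90.8 ± 17.8 and did not pass, and neither did Tfec or Flcn. Tfec passed as higher without DMSO replicate 2 or GSK-LSD1 replicate 3 (limma, Benjamini-Hochberg adjusted p = 0.0253 and 0.0218). Mitf rose from 17.8 ± 5.38 to 32.0 ± 2.75, a call that was lost without DMSO replicate 2 (limma, Benjamini-Hochberg adjusted p = 0.0643) and with quantile scaling (0.0622). Zkscan3, a repressor of lysosomal genes, rose from 341 ± 17.3 to 401 ± 16.7, a call that was lost without DMSO replicate 2 or GSK-LSD1 replicate 1 (0.0527 and 0.0645). Rragd, at 7.56 ± 1.98 and 19.1 ± 4.21, passed the filter through the GSK-LSD1 group alone.

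Among 66 tested lysosomal genes that are not peptidases, 35 rose, 8 fell and 23 did not pass, with a median of 0.20 beside 0.28 for the cathepsins and peptidases described here. The shares of all genes tested, to be set beside this and each list below, were 20.6% higher and 20.5% lower. Of 33 glycosidases, lipases, sulfatases and their activators, 17 rose and 6 fell, led by the ganglioside activator Gm2a from 1435 ± 38.8 to 3818 ± 141 and the saposin precursor Psap from 3009 ± 70.5 to 5735 ± 103, and Arsb fell from 3968 ± 41.6 to 2971 ± 44.2. Of 19 lysosomal membrane proteins 14 rose and 1 fell. Of those that rose, Slc11a1, at 6.26 ± 0.592 and 62.2 ± 1.68 (log2 change 3.13), passed the filter through the GSK-LSD1 group alone. The glycoprotein Cd68 went from 66.8 ± 3.06 to 131 ± 11.5, the cystine exporter Ctns from 137 ± 11.1 to 205 ± 7.25, and Tmem55b fell from 1848 ± 70.5 to 1611 ± 26.7. Of 14 subunits of the proton pump that acidifies the lysosome, 4 rose, 1 fell and 9 did not pass, with Atp6v0a1 rising from 487 ± 40.0 to 954 ± 34.8 and Atp6v1f falling from 1086 ± 30.9 to 944 ± 4.00. The median log2 fold change was 0.09 for the pump list, 0.20 for the enzyme list and 0.22 for the membrane list. Of the genes that work with cathepsins in class II antigen processing, 9 in number, 4 could be tested and 2 rose; the thiol reductase Ifi30 went from 658 ± 15 to 834 ± 17.9. Of 12 macrophage markers, the 3 that could be tested rose in the same libraries, and Cd68 belongs to both the macrophage and the membrane list. Whether macrophages had a part in the counts of these lists was not tested.

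**Figure D5:**
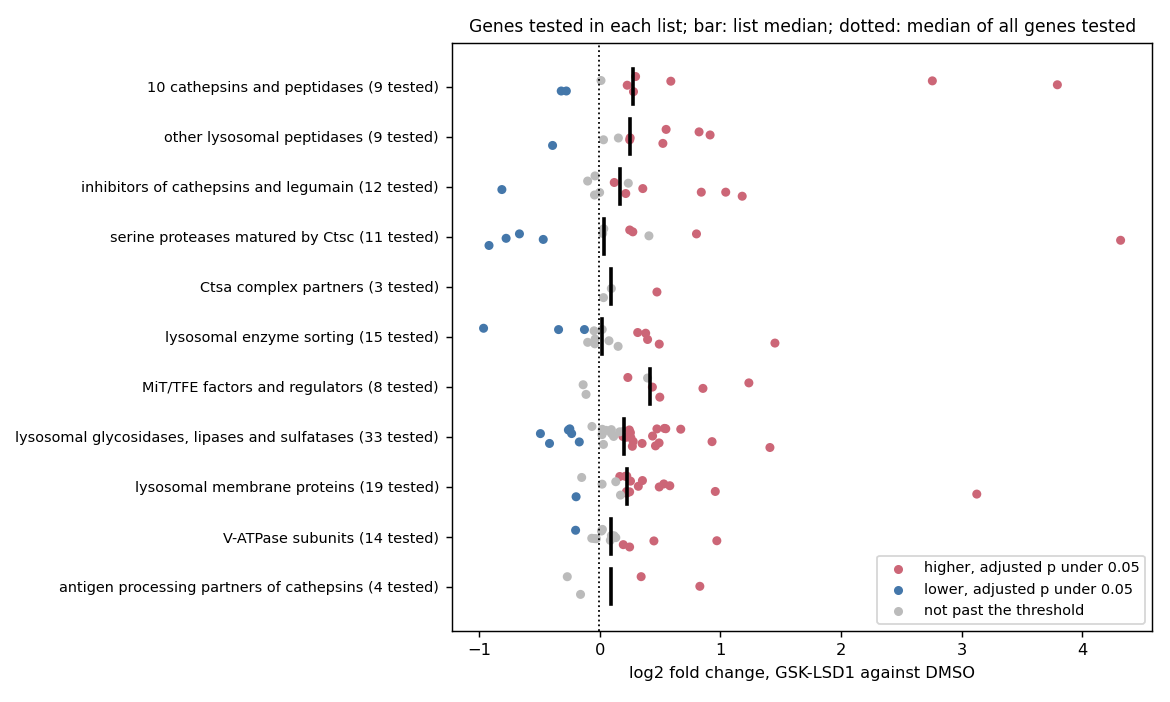
log2 fold change of every tested gene in the cathepsin and peptidase set and in each list set beside it, coloured by call (red higher, blue lower, grey not past the threshold), with a bar at each list's median and a dotted line at the median of all genes tested, -0.01. The medians of the peptidase lists lie to the right of the dotted line. Those of the serine proteases matured by Ctsc and of the sorting genes lie near it at 0.03 and 0.02. The points farthest to the right are Tpsab1 (4.32, proteases matured by Ctsc), Scpep1 (3.79), Slc11a1 (3.13, lysosomal membrane proteins) and Ctss (2.76). Tpsab1 and Slc11a1 passed the filter through the GSK-LSD1 group alone.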

How the data were processed

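RNA was measured in 6 libraries, 3 per group, assigned by their titles. The deposited values, 1 for each gene symbol in each library, are a normalised signal that the authors made by dividing gene read counts by 1 factor per library, as the values show: each is a whole multiple of the library's smallest value, 0.973 to 1.04. The submitters' processing notes list STAR, DESeq2, mm10 and GRCm38 with neither role nor version; how reads were counted, including annotation and strand, is not given in the sources used here. Of 15035 rows, 22 had symbols turned into dates by a spreadsheet. Genes with a value of at least 10 in at least 3 libraries (11588) were tested with limma 3.58.1 in R 4.3.3 on log2(value + 1), two-sided, with a trend of the variance on the mean; p-values were adjusted by Benjamini-Hochberg across these genes, with a threshold of 0.05. A fold change on that scale understates low genes. The procedure was also run on simulated data, with far fewer changed genes than were called here and the same extra noise for every gene. That run therefore does not measure the error of the calls in these data. Standard errors and 95% intervals are limma's.

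The genes and lists were chosen with earlier results of these data known. Named beside the 10 genes are direct or overlapping neighbours, all genes of 4 short lists (inhibitors, other lysosomal peptidases, Ctsa partners and MiT/TFE factors), and from each other list up to 3 called genes with the largest change per direction and a mean of at least 50. Also named, with their values already seen, are Slc11a1 and the remaining tested proteases matured by Ctsc. Lengths and positions come from GENCODE on GRCm38, using for each gene the best-supported coding transcript; windows come from RefSeq. Replicate pairs differed by more than sampling noise (chi-square per degree of freedom 1.57 to 3.51), so each library counted as 1. Alternatives were other pseudocounts, filters and scalings, no trend, a replicate block and each library left out.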

Additional observations from a re-analysis of the deposited data

How the results depend on the processing

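Under the 14 alternatives all 9 tested peptidase genes kept their call or lack of a call in limma. The called genes kept their direction, while the sign of Ctsz, which was not called, changed between alternatives. The log2 change ranged from 3.52 to 3.98 for Scpep1, 2.63 to 2.88 for Ctss, 0.55 to 0.63 for Lgmn, 0.23 to 0.36 for Ctsl (largest Benjamini-Hochberg adjusted p 0.0431), 0.25 to 0.33 for Ctsa, 0.21 to 0.31 for Ctsd, -0.30 to -0.24 for Ctsb, -0.34 to -0.30 for Ctsc and -0.02 to 0.04 for Ctsz. The same count was made for Kdm1a, the tested neighbours and all other tested genes of the lists, marker lists apart, whether or not named here. Of their alternatives, 1842 kept the call, 45 lost it, 19 gained it and none reversed. Among genes with a mean of at least 50, MiT/TFE genes called higher numbered 3 and antigen processing genes 1, because fewer genes were tested. With quantile scaling 1 antigen processing gene was lower, and the list's median was then -0.03 in place of 0.09; the cause was not tested. With a library left out, V-ATPase genes called lower numbered 1 to 2 and glycosidases called lower 3 to 6; 2 came without DMSO replicate 3 and 3 without GSK-LSD1 replicate 3. The sorting list's median, 0.02, was -0.02 without DMSO replicate 3. The ratio of summed levels was 1.10 to 1.13 without 1 library, 1.16 with quantile scaling and 1.13 per library total. The replicate numbers did not pair the samples (correlation of same-numbered deviations -0.0241, -0.0276 and -0.0077, and no library correlated best with its own number); with the replicate block 6 peptidase genes were higher and 2 lower, as without it, and 2345 and 2316 genes in all were higher and lower, in place of 2389 and 2373. Those counts were 2094 and 2618 with quantile scaling and 2586 and 2107 per library total, so genes called higher made up 44.4% and 55.1% of calls in place of 50.2%. Count tests planned for recovered reads were not run, because the steps of DMSO replicates 2 and 3, at 0.991 and 0.995, lie too near 1 for the criterion. Depth limits Ctsh, Ctsk and Scpep1os, which rest on few reads.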
